A study of Mus musculus with 4 samples.

Results

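Isyna1 and 7 further enzymes of inositol metabolism (Impa1, Impa2, Inpp1, Minpp1, Itpk1, Cdipt and Miox) were followed in cumulus cells (CCs), the somatic cells around the oocyte of the antral follicle. Their probes were those of the Illumina mouse BeadChip table of non-normalized signals whose name was one of these symbols, which gave 13 of 25697 probes for 7 genes. The probe of Miox stands in that table under the older symbol Aldrl6 and was found through the platform annotation, so that 14 probes of 8 genes are described. Isyna1 was chosen because it was among the genes with the lowest p that were higher in NSN-CCs, and the other enzymes were chosen as its pathway, with earlier results of these arrays known.

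The samples were 2 pools of NSN-CCs, from oocytes whose chromatin does not surround the nucleolus and which are developmentally incompetent, and 2 pools of SN-CCs, from oocytes with a ring of chromatin around the nucleolus, which are competent. All donors were B6C3F1 females, 6 weeks old in the labels, that had received folligon (a gonadotropin that stimulates follicle growth) 48 hours before. Each pool combined the CCs of many cumulus-oocyte complexes and animals and was hybridised to an array of its own, so n = 2 for each type of CCs. The labels give the tissue as oocytes, whereas titles and source names say cumulus cells.

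Inositol is a sugar alcohol that cells take up from outside or make from glucose phosphate. Isyna1 encodes the synthase that turns glucose phosphate into inositol phosphate, the committed step of synthesis, and the monophosphatases Impa1 and Impa2 remove the phosphate. Cdipt joins inositol to a lipid to form phosphatidylinositol. Once kinases have added phosphates to it, phospholipase C releases inositol trisphosphate, a messenger that opens calcium stores in granulosa cells and oocytes. Inpp1 and Minpp1 take phosphates off again, Itpk1 adds them towards the higher inositol phosphates, and Miox opens the inositol ring in the first step of its breakdown, an activity best known from the kidney.

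Markers of granulosa cells were bright, with Cyp19a1 (aromatase) and Fshr (the FSH receptor) among 9 of 10 that exceeded the background limit on all 4 arrays. This limit was set in each array from its 1340 probes of chemosensory receptors, at their 95th percentile, and lay between 116 and 120. SN-CCs replicate 2 differed from the other arrays, with a rank correlation over all probes of at most 0.88 with any of them, against 0.95 among the other 3. It also had fewer probes above the limit (11734, against 13531 to 13703). Among the 10588 probes above the limit on all arrays, the pools had a median SD of 0.37 (log2) for SN-CCs and of 0.072 for NSN-CCs. Log2 fold changes of the members and of the pathway genes named are therefore given without that array too. In pools of cells, fewer cells of a type and less RNA per cell cannot be told apart.

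The Isyna1 probe read 1992 in SN-CCs replicate 1, 1541 in SN-CCs replicate 2, 3307 in NSN-CCs replicate 1 and 3784 in NSN-CCs replicate 2, and pairs of signals below keep this order of replicates. Its name comes from the signal table, since the platform annotation gives this only Isyna1 probe no single gene symbol. Both NSN-CCs pools were above both SN-CCs pools, and the lowest of the 4 signals was 12.9 times the highest background limit. After normexp background correction, quantile normalization and log2, the level was 10.73 ± 0.12 (SD, n = 2 pools) in SN-CCs and 11.87 ± 0.14 (SD, n = 2 pools) in NSN-CCs. The log2 fold change (NSN-CCs minus SN-CCs) was 1.14, a 2.20-fold higher level in NSN-CCs. The gap between the lower NSN-CCs pool and the higher SN-CCs pool was 0.95 on the log2 scale, while the SN-CCs pools lay 0.17 apart. Isyna1 had the smallest unadjusted p of all probes, and by the size of its log2 fold change it stood at place 450. Since this contrast chose the gene, these values are a description and no test is given.

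The difference of Isyna1 changed little with the array left out. Isyna1 was chosen on these same arrays for a low p, which favours a steady difference, so these values are no separate support. Without SN-CCs replicate 2 the log2 fold change was 1.01 (2.01-fold), which was then the fourth place of all probes by size. Without SN-CCs replicate 1 it was 1.24. With one or the other pool of NSN-CCs left out it was 1.25 (without replicate 1) and 1.05 (without replicate 2). In the table that the authors normalized, Isyna1 had values of 1724 and 1310 for SN-CCs against 3069 and 3505 for NSN-CCs, and a log2 fold change of 1.13.

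**Figure D1:**
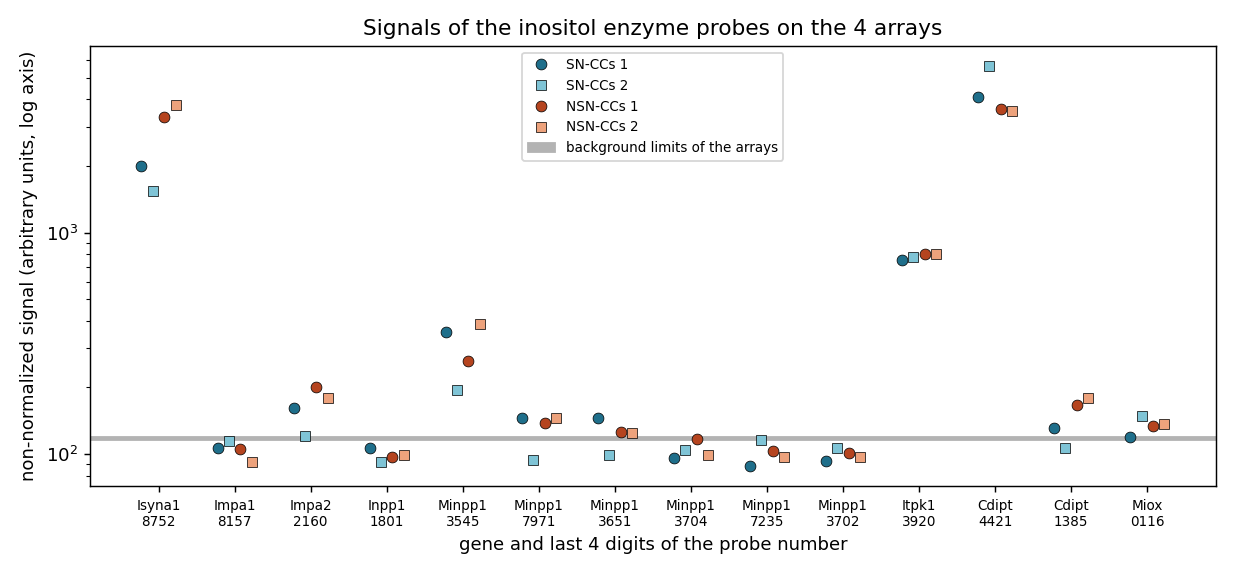
Non-normalized signal (arbitrary units, log axis) of each of the 14 probes on the 4 arrays, 1 point per array, with the probes named by gene and the last 4 digits of their number. The grey band spans the background limits of the arrays (116 to 120). Isyna1 is above the band on all arrays with both NSN-CCs points on top, and 5 of the 14 probes, against 40.6% of all probes of the array, stay at or below their limits throughout.

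Markers of other cells were read on the same arrays as Isyna1. Over all probes 44% had a log2 fold change above 0, and 49.8% without SN-CCs replicate 2. All 12 oocyte markers, among them Gdf9 and Bmp15, had a log2 fold change below 0. In limma 3 of the 12 had an unadjusted p under 0.05, where 2.01% of all probes were lower at that threshold. An adjusted p of 0.05 was passed by 0 of them and by 0% of all probes. Their median was -0.44 (-0.21 without SN-CCs replicate 2). Their summed signal was 4741 and 5495 for SN-CCs against 3639 and 3697 for NSN-CCs, and Zp2 was below the background limit on all arrays. Of the 4 red blood cell genes measured 2 were above 0 and 2 below, Hba-a1 at 0.78 (12295 and 7965 for SN-CCs against 14494 and 15008 for NSN-CCs) and Alas2 at -0.53 (0.41 and -0.36 without SN-CCs replicate 2), and the summed signal of the list was 13135 and 8758 for SN-CCs against 15121 and 15718 for NSN-CCs. For granulosa and cumulus cells 8 of 10 markers had a value above 0 (7 without SN-CCs replicate 2), with a median of 0.24 (0.031 without that array). Their summed signal was 162020 and 109547 for SN-CCs against 157961 and 152625 for NSN-CCs. Within this sum Inha read 46056 and 3760 for SN-CCs against 45170 and 43879 for NSN-CCs. Cyp19a1 read 10576 and 13592 for SN-CCs against 11581 and 12000 for NSN-CCs. The mural granulosa list (1 of 3 higher, and 2 of 3 without SN-CCs replicate 2) summed to between 4898 and 7813, highest in SN-CCs replicate 2, and held Lhcgr, the LH receptor, at -0.48 (-0.069 without that array) and Cyp11a1 at 0.42 (0.39 without it).

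The theca and stroma list (2 of 6 higher, and 4 of 6 without SN-CCs replicate 2) summed to between 6666 and 10573, highest in SN-CCs replicate 2, with Cyp17a1 above the limit on all arrays and Insl3 on none. The leukocyte list (1 of 6 higher, and 5 of 6 without SN-CCs replicate 2) summed to 734 to 804, with Ptprc above the limit on no array and Cd68 on 1. The endothelial list (2 of 6 higher, and 3 of 6 without SN-CCs replicate 2) summed to 675 to 743, with Cdh5 above the limit on no array and Pecam1 just above it on all. The part of these cells in the values of Isyna1 and the other enzymes was not tested.

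The sequences at the start of Isyna1 and Miox are shown because the synthesis and the breakdown enzyme are the opposite ends of the pathway on these arrays, Isyna1 far above the background limit and Miox near it. RefSeq promoters (GRCm38.p6, 250 bases before to 50 after the gene start) were matched for 5 of the 8 members. Capitals mark each CG dinucleotide and, in Miox, a TATA box. The window of Isyna1 is chr8:70594231-70594530 on the plus strand, and that of Miox is chr15:89334223-89334522 on the plus strand.
Isyna1: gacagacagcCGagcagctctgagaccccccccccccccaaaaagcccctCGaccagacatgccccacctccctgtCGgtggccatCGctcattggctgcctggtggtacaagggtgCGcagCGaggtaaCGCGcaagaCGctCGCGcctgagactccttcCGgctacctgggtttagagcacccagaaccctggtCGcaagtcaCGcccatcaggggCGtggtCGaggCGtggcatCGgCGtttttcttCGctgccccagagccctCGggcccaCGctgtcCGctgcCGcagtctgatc
Miox: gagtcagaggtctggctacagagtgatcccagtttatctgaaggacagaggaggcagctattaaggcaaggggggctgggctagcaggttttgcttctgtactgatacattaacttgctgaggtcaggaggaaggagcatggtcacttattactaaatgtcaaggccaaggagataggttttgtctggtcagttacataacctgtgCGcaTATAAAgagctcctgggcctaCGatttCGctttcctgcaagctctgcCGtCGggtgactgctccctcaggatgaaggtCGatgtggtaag

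The Isyna1 window held 24 CG dinucleotides and 66% G and C, more CG than 80% of the 32851 promoters of that length, whose median was 7. The Miox window held 6 CG dinucleotides, 50% G and C, and the letters TATAAA from base 211. Minpp1 had 24 CG dinucleotides, Inpp1 18 and Itpk1 55. On both strands the windows were searched for the GC box (GGGCGG), the CRE core (TGACG), the E-box CACGTG, the NR5A element (CAAGGTCA), the TATA box (TATAAA) and a pair of E2F forms (TTTCCCGC and TTTGGCGC). None of these letters was in the Isyna1 window, and the Miox window held only the TATA box. The window of Itpk1 held 10 GC boxes, that of Inpp1 2 GC boxes and 1 CRE core, and that of Minpp1 1 CRE core. Inpp1, with its 18 CG dinucleotides, was below the background limit on all arrays. A relation between these windows and the signals was not tested. TATAAA occurs in 13.6% of all promoters in the table, GGGCGG in 35.7%, TGACG in 20.8%, CACGTG in 7.15%, CAAGGTCA in 1.56%, TTTCCCGC in 1.07% and TTTGGCGC in 0.514%.

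The probes whose pattern over the 4 arrays was nearest to Isyna1 were those of Crtc3 and Cited4. Likeness was the Euclidean distance between centred normalized log2 values, taken over the 10587 other probes brighter than that limit on every array. Crtc3, a coactivator of CREB, was at a distance of 0.22, with signals of 274 and 176 for SN-CCs against 421 and 533 for NSN-CCs. Cited4, a transcriptional coactivator, was at 0.23, with 614 and 328 for SN-CCs against 1063 and 1039 for NSN-CCs. Both had the lowest signal in SN-CCs replicate 2, as Isyna1 had, and both were picked for likeness over these same arrays. Next came the lipid carrier Apoe (0.28), the AP-1 gene Junb (0.29) and the WNT ligand gene Wnt4 (0.33). None of these genes belongs to inositol metabolism, and with 4 arrays, 2 of a type, the order is a description.

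**Figure D2:**
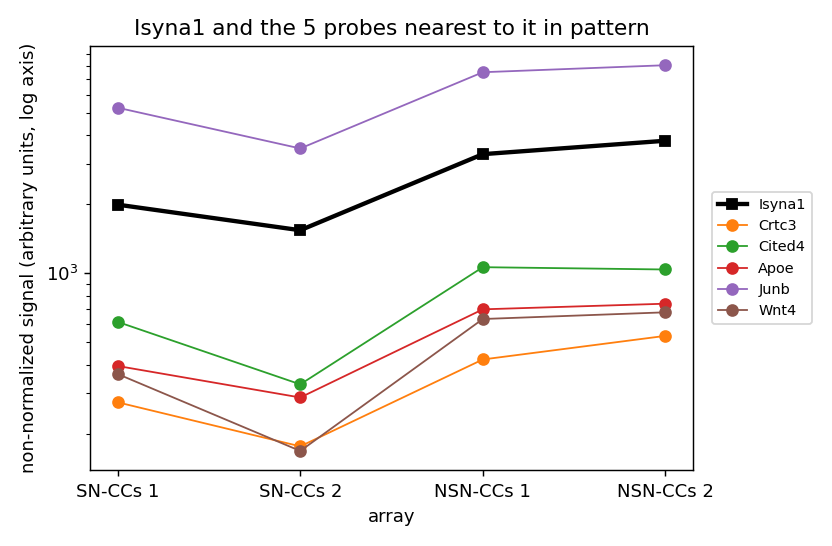
Non-normalized signal (arbitrary units, log axis) of Isyna1 (black squares) and of the 5 nearest probes on each of the 4 arrays, with lines joining the arrays of a probe. In each of the 6 genes both NSN-CCs pools are above both SN-CCs pools, and SN-CCs replicate 2 is lowest. The 5 probes were picked for a pattern near that of Isyna1, so the shared order is no separate finding.

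By the sign of the log2 fold change alone, with no test, the terms higher and lower below refer to NSN-CCs. Of the 14 probes, 7 had a value above 0 and 7 below 0, with a median of 0.025. Over all 25697 probes 44% were above 0, and the median was -0.033. Without SN-CCs replicate 2, 8 of the 14 were above 0 (against 49.8% of all probes) and the median was 0.092. In limma 0 of the 14 probes passed an adjusted p of 0.05, as did 0% of all probes. At an unadjusted p under 0.05 there were 2 (14.3%), Isyna1 and the dim probe of Cdipt, against 3.11% of all probes (1.1% higher and 2.01% lower), and Isyna1 had been chosen by this measure. Both NSN-CCs signals were above both SN-CCs signals for 4 probes (28.6%, against 19.4% of all probes) and below them for 2 (14.3%, against 19% of all probes). The 4 include Isyna1, and without it 3 of 13 (23.1%) were above. Itpk1 is also among the 4, at a log2 fold change of -0.0030. This order was read on the non-normalized signals, whose median was lowest on SN-CCs replicate 2 (113, against 122 to 125 on the other arrays). The signs and p-values came from normalized values. With 2 arrays against 2, an exact two-sided permutation test cannot give a p below 0.333.

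Of the monophosphatases that complete inositol synthesis, Impa1 was not above the background limit on any array, with signals of 106 and 115 for SN-CCs against 105 and 92.1 for NSN-CCs. No fold is given for it. Impa2 was above the limit on all arrays, at 161 and 120 for SN-CCs against 201 and 179 for NSN-CCs. Both NSN-CCs pools of Impa2 were above both SN-CCs pools, and SN-CCs replicate 2 was within 1 unit of its limit of 119. The log2 fold change of Impa2 was 0.36 (95% interval -0.072 to 0.80, adjusted p = 0.811 from limma). It was 0.28 without SN-CCs replicate 2, where 0.00389% of all probes passed an adjusted p of 0.05, and 0.45 without SN-CCs replicate 1 (adjusted p = 0.0254). In that last setting, which assumes that the lone pool of SN-CCs varies like the NSN-CCs pools, 37.1% of all probes passed an adjusted p of 0.05.

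Minpp1, the phosphatase of higher inositol phosphates, was measured by 6 probes that differed in brightness and in sign. The brightest had signals of 356 and 194 for SN-CCs against 262 and 385 for NSN-CCs, so that the 2 types of CCs overlapped. The log2 fold change came to 0.061 (95% interval -0.65 to 0.77, adjusted p = 0.958 from limma), and -0.093 without SN-CCs replicate 2. A second probe had 145 and 94.4 for SN-CCs against 138 and 145 for NSN-CCs, and the third 146 and 99.1 for SN-CCs against 126 and 125 for NSN-CCs. On both of these SN-CCs replicate 2 was below its background limit and the other 3 arrays were above theirs. Their log2 fold changes were 0.28 (95% interval -0.41 to 0.98, adjusted p = 0.811 from limma) and 0.056 (95% interval -0.56 to 0.68, adjusted p = 0.956). Without SN-CCs replicate 2 they were -0.041 and -0.25. Without SN-CCs replicate 1 they were 0.58 and 0.32. The other 3 probes of Minpp1 were below the limit on all arrays, between 88 and 117.

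Inpp1, which removes a phosphate from inositol bisphosphate, was below the background limit on all arrays, with signals of 107 and 91.9 for SN-CCs against 97 and 99.4 for NSN-CCs. Itpk1, the kinase on the way to the higher inositol phosphates, had nearly even signals of 755 and 772 for SN-CCs against 800 and 797 for NSN-CCs. Before normalization both NSN-CCs signals of Itpk1 were above both SN-CCs signals, whereas after it SN-CCs replicate 2 was the highest of the 4, at 9.78, and SN-CCs replicate 1 the lowest, at 9.34. Its log2 fold change was -0.0030 (95% interval -0.54 to 0.53, adjusted p = 0.998 from limma). It was 0.21 without SN-CCs replicate 2 and -0.22 without SN-CCs replicate 1.

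Cdipt, which makes phosphatidylinositol, had 2 probes whose log2 fold changes differed in sign. The bright probe had signals of 4084 and 5651 for SN-CCs against 3597 and 3528 for NSN-CCs, with both NSN-CCs pools below both SN-CCs pools. It had a log2 fold change of -0.24 (95% interval -0.76 to 0.27, adjusted p = 0.811 from limma). The dim probe had 131 and 107 for SN-CCs against 167 and 179 for NSN-CCs, with both NSN-CCs pools above both SN-CCs pools and SN-CCs replicate 2 below its background limit. In log2 the difference came to 0.52 (95% interval 0.095 to 0.95, adjusted p = 0.811 from limma, unadjusted p = 0.0270). Without SN-CCs replicate 2 the bright probe was at -0.041 and the dim probe at 0.46. Without SN-CCs replicate 1 they were at -0.44 and 0.61. Both probes carry the same RefSeq accession in the platform annotation, so which transcripts they tell apart is not known here.

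Miox, the enzyme of inositol breakdown, had signals of 120 and 148 for SN-CCs against 134 and 137 for NSN-CCs, all just above the background limits. The NSN-CCs pools lay between the SN-CCs pools, of which SN-CCs replicate 2 was the highest. The log2 fold change was -0.20 (95% interval -0.98 to 0.58, adjusted p = 0.858 from limma). It was 0.19 without SN-CCs replicate 2 and -0.54 without SN-CCs replicate 1, so its direction rested on which pool of SN-CCs was used.

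**Figure D3:**
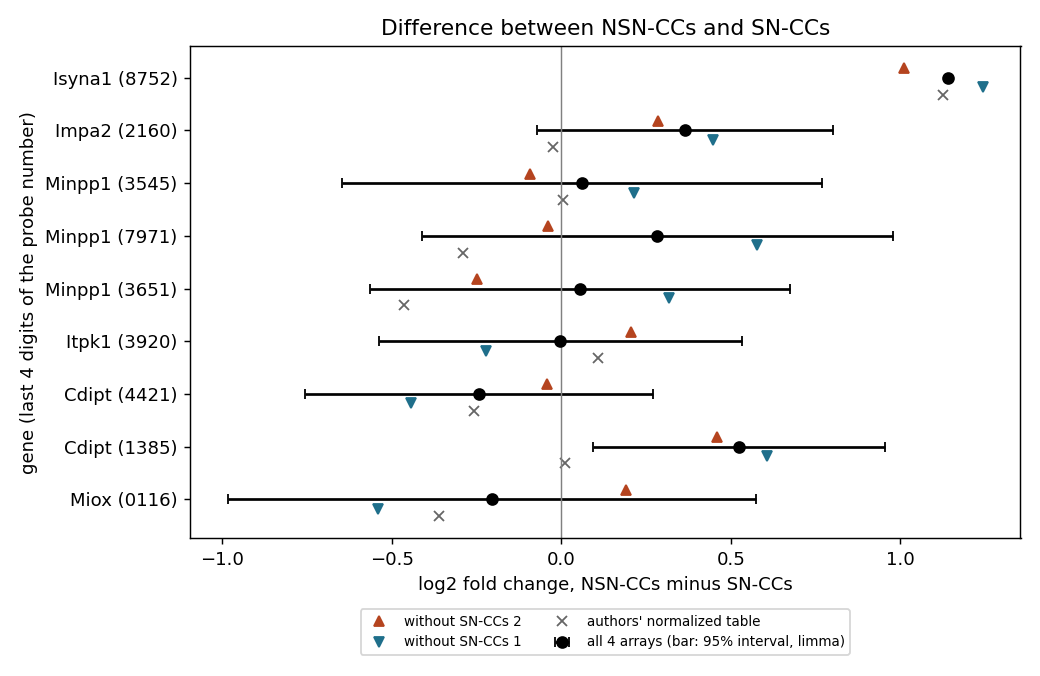
Log2 fold change (NSN-CCs minus SN-CCs) of the 9 probes brighter than the background limit on 1 array or more, from all 4 arrays (black points, with limma's 95% interval except for Isyna1, which this contrast chose), without SN-CCs replicate 2, without SN-CCs replicate 1 and from the table that the authors normalized. Isyna1 stays between 1.01 and 1.24 in these settings, and Miox, Itpk1 and the 3 Minpp1 probes have opposite signs without one and without the other SN-CCs pool.

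The dim members differed between the 2 deposited tables. In the normalized table of the authors, 4 of the 14 probes had a log2 fold change above 0 (against 17.5% of all probes). The lowest value on SN-CCs replicate 2 was 182 there, against 66.2 to 69.1 on the other arrays, and its median was 222 against 124 to 125. The 5 member probes at background had values of 206 to 224 on SN-CCs replicate 2 there, and of 95.1 to 118 on the other arrays. In the non-normalized table the same probes had 91.9 to 116 on SN-CCs replicate 2 and 88 to 117 on the others. SN-CCs replicate 2 was the highest of the 4 values for 11 of the 14 probes in the normalized table (against 79.4% of all probes) and for 5 in the non-normalized table (against 30.3% of all probes). The median log2 fold change was -0.33 for the members in the normalized table and -0.43 for all probes. Miox was at -0.36 there, with 122 and 249 for SN-CCs against 134 and 137 for NSN-CCs, and Impa2 was at -0.026.

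Beyond these enzymes, 85 of 90 further genes of inositol, inositol phosphate and phosphoinositide metabolism had a probe. The brightest probe of each gene was used, which favours bright probes, so shares of these genes and shares of all single probes are not alike in unit. On it 57 genes (67.1%) were brighter than the background limit on every array, where 41.2% of all single probes were. By sign, 38 had a log2 fold change above 0 and 47 below, the median being -0.026. In limma 0 passed an adjusted p of 0.05, and 2 (2.35%) had an unadjusted p under 0.05, against 3.11% of all probes. Without SN-CCs replicate 2 the split was 52 higher and 33 lower, with a median of 0.045, while it was 12803 higher and 12894 lower over all probes. Before normalization, both NSN-CCs signals were above both SN-CCs signals for 25 genes (29.4%, against 19.4% of all probes). They were below them for 19 (22.4%, against 19% of all probes). The log2 fold changes came from normalized values, so a gene counted as above here can have a log2 fold change below 0. Of the 57 genes above the limit on all arrays 28.1% were without overlap above and 26.3% below, where the shares of all such probes were 14.2% and 31.4%.

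The inositol phosphate kinases held both of the genes with an unadjusted p under 0.05, in opposite directions. Ppip5k2, which makes inositol pyrophosphates, had signals of 245 and 241 for SN-CCs against 179 and 165 for NSN-CCs. The log2 fold change came to -0.76 (95% interval -1.42 to -0.098, adjusted p = 0.811 from limma), and -0.50 without SN-CCs replicate 2. Ip6k2, a kinase of inositol hexakisphosphate, had 257 and 124 for SN-CCs against 326 and 333 for NSN-CCs. Its log2 fold change was 0.84 (95% interval 0.055 to 1.63, adjusted p = 0.811 from limma), and 0.46 without SN-CCs replicate 2. In both genes the NSN-CCs pools did not overlap the SN-CCs pools. Of the 9 kinases measured 4 were higher and 5 lower.

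Of the 7 inositol phosphate phosphatases 6 were higher and 1 lower, at a median of 0.17, and of 0.16 without SN-CCs replicate 2. Inpp5a, which ends the inositol trisphosphate signal, had signals of 1507 and 483 for SN-CCs against 1835 and 1798 for NSN-CCs. It had a log2 fold change of 1.06 (95% interval -0.14 to 2.27, adjusted p = 0.811 from limma), and 0.42 without SN-CCs replicate 2, the array with the signal of 483. Nudt10, a hydrolase of diphosphoinositol phosphates, was the lower one, with 302 and 281 for SN-CCs against 286 and 249 for NSN-CCs (log2 fold change -0.36, adjusted p = 0.811 from limma, and -0.11 without that array).

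Inositol transporters were dim. Slc5a3, the sodium-coupled inositol transporter, had signals of 121 and 106 for SN-CCs against 123 and 138 for NSN-CCs, and Slc2a13, the proton-coupled one, had 191 and 172 for SN-CCs against 200 and 160 for NSN-CCs. Their log2 fold changes were 0.16 (adjusted p = 0.812) and -0.26 (adjusted p = 0.811), both from limma, and 0.099 and -0.064 without SN-CCs replicate 2. Among genes of phosphatidylinositol synthesis and transfer 4 were higher and 3 lower. Pitpnc1, a transfer protein, was at 0.61 (0.23 without SN-CCs replicate 2). Tamm41, a mitochondrial enzyme placed in this list, was at -0.57 (-0.20 without that array). Both had an adjusted p of 0.811 in limma.

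The phosphoinositide kinases split evenly, with 10 of 20 higher in NSN-CCs and a median of 0.012. Pip4k2c, a kinase of phosphatidylinositol phosphate, had signals of 1764 and 1285 for SN-CCs against 1881 and 1950 for NSN-CCs (log2 fold change 0.41, 95% interval -0.0063 to 0.83), and Pik3cb, a catalytic subunit of phosphoinositide 3-kinase, was at -0.33. These genes were at 0.27 and -0.12 without SN-CCs replicate 2. Of the 22 phosphoinositide phosphatases 16 were lower, with a median of -0.13, and 13 were lower without SN-CCs replicate 2. Among those above the background limit on at least 2 arrays, the lower gene with the smallest p was Pip4p2, with signals of 1773 and 2212 for SN-CCs against 1405 and 1392 for NSN-CCs (log2 fold change -0.42, and -0.20 without SN-CCs replicate 2). The higher gene chosen in the same way was Mtmr2, a myotubularin, at 0.99, and at -0.21 without SN-CCs replicate 2, where its signal was 120 against 562 to 709 on the other arrays. Each of these 4 genes had an adjusted p of 0.811 from limma.

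Of the 14 phospholipases C, 9 were lower and 5 higher, but 11 were higher without SN-CCs replicate 2. Plcd3 was at 0.38 (0.27 without that array) and Plcg2 at -0.57 (-0.094 without it), both with an adjusted p of 0.811 in limma. The 3 inositol trisphosphate receptor genes were above the background limit on each array. Itpr1 had signals of 5944 and 5156 for SN-CCs against 5235 and 4943 for NSN-CCs (log2 fold change 0.088, adjusted p = 0.888 from limma, and -0.035 without SN-CCs replicate 2). Itpr2 was at -0.30 (adjusted p = 0.828), and at 0.14 without SN-CCs replicate 2, which had 3164 against 1736 to 1811 on the other arrays.

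**Figure D4:**
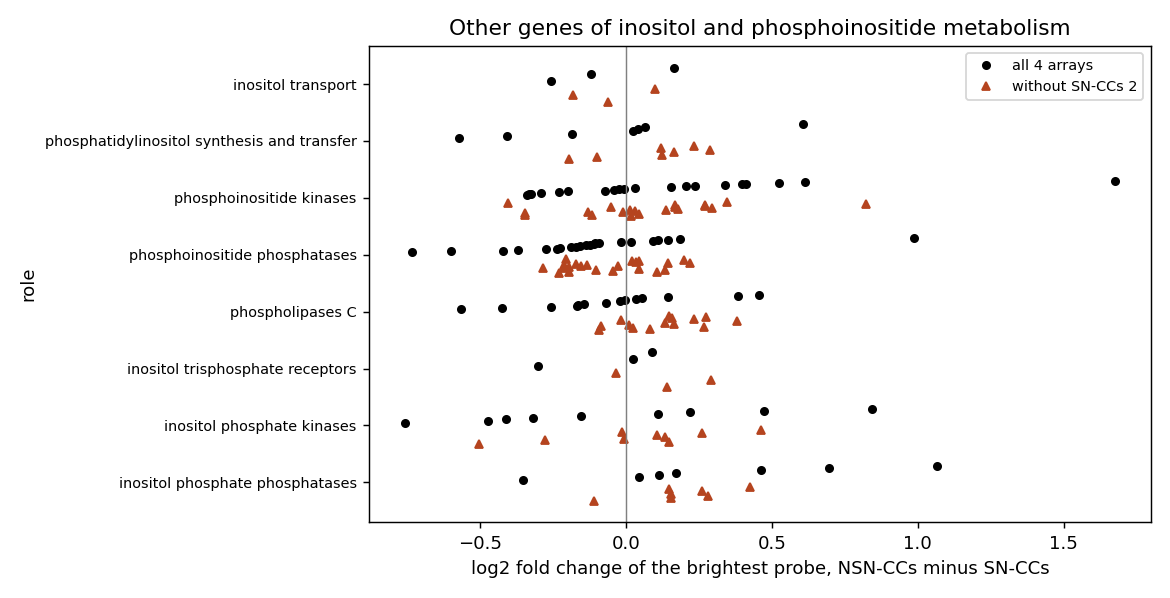
Log2 fold change (NSN-CCs minus SN-CCs) on the brightest probe of each of 85 further genes, in rows by role, from all 4 arrays (black points) and without SN-CCs replicate 2 (triangles). Most roles hold genes on both sides of 0, and the points of several genes move towards 0 or across it without that array.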

How the data were processed

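RNA from the 4 pools (2 for each type of CCs) was amplified in a pair of linear rounds and hybridised by the authors to Illumina mouse BeadChips, read with BeadStudio (version 3 in the submitters' processing notes). The authors deposited intensities in both tables, on a linear scale. The first holds signals with neither background subtraction nor scaling. The second holds values that the study describes as background-subtracted and normalized by the rank invariant method. In it the chemosensory probes still had a median of 207 on SN-CCs replicate 2 and of 96.7 to 97.8 on the other arrays. Detection p-values were not used here. Groups and replicate numbers came from the titles, and nothing pairs the pools. P-values measure the spread between pools only.

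Signals went through normexp background correction (offset 50) and quantile normalization, and their log2 values through limma 3.58.1 in R 4.3.3, with no covariates and no filter, and with Benjamini-Hochberg adjustment across the 25697 probes. The code was checked on simulated data, which does not show how well limma recovers differences on these 4 arrays. The number of arrays limits the precision. The study names a permutation-based test without details, so limma took its place.

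Members, gene lists and rules were chosen with earlier results of these data known. Named were the members, in each role the higher and the lower gene with the smallest p among those above the background limit on at least 2 arrays, the 5 probes nearest to Isyna1, and the first 2 genes of each marker list (Hbb-b1 had no probe). Zp2, Alas2 and Inha were named after seeing the values. Symbols came from the platform annotation (23978 probes, updated through gene IDs), and from the signal table for the 1719 others, Isyna1 and Impa2 included. Promoters came from RefSeq.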

Additional observations from a re-analysis of the deposited data

How the results depend on the processing

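The number of arrays and the signal over background limit these results: with 2 pools of a type, and 1 pool of SN-CCs apart from the rest, 0 of 25697 probes passed an adjusted p of 0.05 in limma, while 800 had an unadjusted p under 0.05. The settings were no background correction, a normexp offset of 16, median centring, the table that the authors normalized, 2 filters on dim probes, array weights, a replicate block and each array left out. The count at an unadjusted p under 0.05 was 49 in the normalized table of the authors, 231 with a filter on dim probes (above the limit on at least 2 arrays), 176 with that filter and the limit at the 99th percentile, and 1286 with array weights. With 1 array left out it went from 23 to 11313, and the count at an adjusted p under 0.05 from 0 to 9546. The highest counts came without SN-CCs replicate 1, a setting that assumes that the lone pool of SN-CCs varies like the NSN-CCs pools. Without SN-CCs replicate 2, 1 probe of the array passed.

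Isyna1 was at 0.97 on the log2 scale with median centring, and between 1.01 and 1.25 with 1 array left out. The median of the members was -0.33 and that of the further pathway genes -0.23 in the normalized table of the authors, where the median of all probes was -0.43. With 1 array left out these medians lay between -0.037 and 0.092 and between -0.12 and 0.045. Of 95 values of the other member probes under the alternatives, 12 changed sign. With median centring these were the dimmest of the 3 Minpp1 probes (-0.0029) and Itpk1 (0.0083). In the normalized table they were Impa2 (-0.026), the other 2 Minpp1 probes besides the brightest (-0.29 and -0.46) and Itpk1 (0.11). With 1 array left out they were the 3 Minpp1 probes (-0.23 to 0.36, -0.041 to 0.58 and -0.25 to 0.32), Itpk1 (-0.22 to 0.21) and Miox (-0.54 to 0.19). The cause was not tested.

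With the replicate number as a block, 0 probes passed an adjusted p of 0.05 and 605 had an unadjusted p under 0.05. The deviations of arrays with the same number correlated at 0.047 across probes, and the numbers pair nothing in the labels.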
